A study of Mus musculus with 18 samples.

Results

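Rab GTPases are small GTP-binding proteins that mark the membranes of the cell and direct vesicle traffic between them. A Rab is active when an exchange factor (GEF) loads it with GTP and inactive after a GTPase-activating protein (GAP) makes it hydrolyse the GTP, and it holds to membranes through lipid groups that a transferase adds with the help of an escort protein. In immune cells Rabs carry receptors through endosomes, mature phagosomes into lysosomes and bring the granules of neutrophils and killer lymphocytes to the surface. The genes described here were chosen by name alone, as all those called Rab followed by a number, an optional letter and an optional further number, on probe sets with 1 gene symbol. This gave 59 of the 19752 genes measured.

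The data are 18 gene expression arrays (Affymetrix Mouse Gene 1.0 ST), 2 for each of 9 cell populations sorted by flow cytometry from male C57BL/6 mice aged 6 weeks. All mice had received 10000 U of interferon gamma (IFNg) under the skin 2 h before, so the comparisons are between cell types of treated animals, and untreated mice were not analysed here. The 3 myeloid populations were splenic dendritic cells (DC, gated as CD11c+ MHCII+ Flt3+), splenic granulocytes (GN, Ly6G+) and peritoneal macrophages (MF, F4/80+ ICAM2+). The 6 lymphoid populations, all from spleen, were NK cells (NK1.1+ TCRB-), NK1.1+ T cells (NKT, NK1.1+ TCRB+), CD4 T cells (T4, CD4+ TCRB+), CD8 T cells (T8, CD8+ TCRB+), gamma delta T cells (Tgd, TCRgd+ TCRB-) and CD25+ CD4 T cells (Treg, CD4+ TCRB+ CD25+). MF were the only cells from the peritoneal cavity, so cell type and tissue cannot be told apart for them.

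Levels are log2 intensities, given by array or as mean ± SD (n = 2 arrays per population), and differences are log2 differences ± SE from limma, where 1 unit is a 2-fold difference. A gene was called at a Benjamini-Hochberg adjusted p under 0.05 in limma and a difference, or a range of population means, of at least 2-fold. Median intensity lay between 138.5 and 151.0 on the arrays, Pearson's r over genes between the 2 arrays of a population was 0.990 to 0.996, and all 11 genes of the sort markers differed between populations. Whether each array stands for its own mouse is not given in the labels, so the p-values reflect array-to-array spread that may be technical, and the small number of arrays limits precision. In sorted bulk populations, fewer cells of a type and less RNA per cell cannot be told apart. Markers of granulocytes and, to a smaller extent, of some other cells were uneven between the DC arrays, and this is given beside the results it touches.

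Of the Rab transcripts 8 were at least 2-fold higher in the mean of the myeloid populations and 2 in the mean of the lymphoid ones. Not all 8 were higher in every myeloid population. A further 21 differed between populations in other ways and 28 were even. The 21 differed by under 2-fold between the myeloid and lymphoid means, and the 28 had a range of population means under 2-fold. In the test over the 9 populations 31 of the 59 Rab genes were called (52.5%, against 39.0% of all genes). The contrast of the mean of the 3 myeloid populations with the mean of the 6 lymphoid ones called 8 Rab genes higher (13.6%, against 6.39% of all genes) and 2 lower (3.39%, against 4.41%). Its median over the Rab genes was 0.18, and over all genes -0.01. After quantile normalization this contrast called 5 of the 59 Rab genes higher, against 1213 of all 19752 genes. Rab3d, Rab11a and Rab27a were then under 2-fold. Even genes, without a call in this contrast and with a range of population means under 2-fold, made up 47.5% of the Rab genes and 61.0% of all genes. Even thus means a small range and not the absence of a difference. At an adjusted p under 0.05 without a fold minimum, 48 Rab genes differed over the 9 populations (moderated F test) and 41 in the myeloid contrast (limma). Shares of all genes at that p alone are not given here. Of the 28 even Rab genes 14 never reached, in any population, the median level of all genes.

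**Figure D1:**
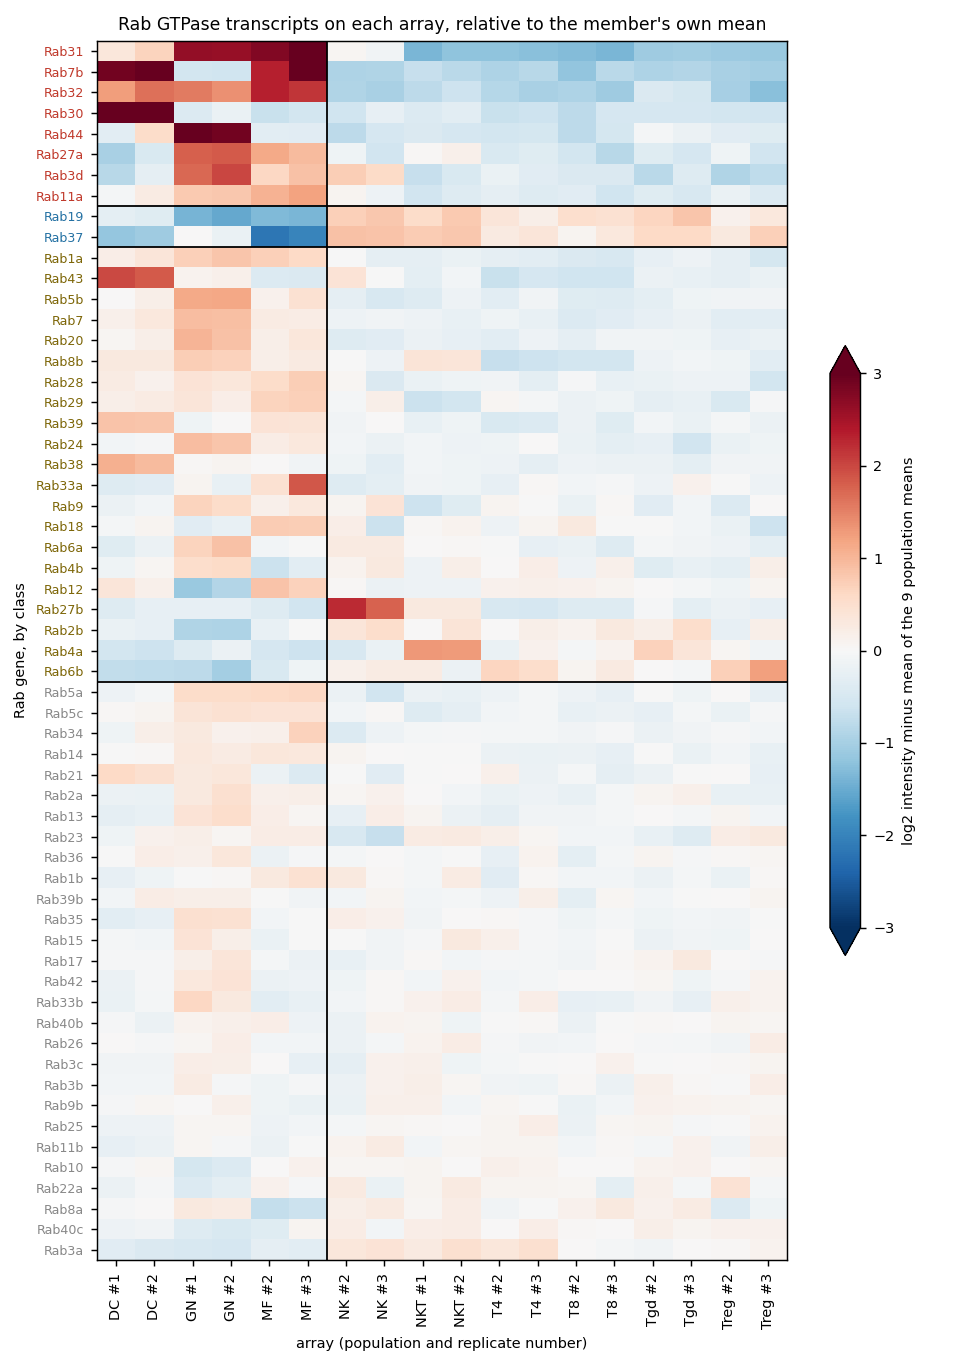
Heat map of the 59 Rab genes (rows, grouped by class and ordered by myeloid minus lymphoid difference) on the 18 arrays (columns, labelled by population and replicate number), as log2 intensity minus the mean of the gene's 9 population means; the colour scale is capped at 3 in either direction. The 8 myeloid-high genes at the top do not share one pattern: Rab31 and Rab32 are above their mean on every myeloid array, Rab30 on the DC arrays and Rab44 most on the GN arrays.

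By the membrane each Rab is known to serve, from general knowledge of the family, the called genes were spread over most of the cell. Regulated secretion had 9 measured members, of which 3 were myeloid-high, 1 was lymphoid-high, 1 differed in another way and 4 were even. The late endosome, lysosome and related organelles had 11, with 2 myeloid-high, 6 that differed in another way and 3 even. The ER and Golgi had 14, with 1 myeloid-high, 1 lymphoid-high, 8 that differed in another way and 4 even. Early endosomes had 8, with 1 myeloid-high, 2 that differed in another way and 5 even, and recycling and surface delivery had 12, with 1 myeloid-high, 3 that differed in another way and 8 even. The median range of population means was 2.48 among the secretion genes, 1.29 for late endosome and lysosome and 1.25 for the ER and Golgi. It was 0.90 for early endosomes, 0.73 for recycling and 0.63 for the remaining Rab genes. Over all Rab genes this median was 1.03, and over all genes 0.71. The secretion genes were spread widely, from 0.24 for Rab3b to 3.66 for Rab44.

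Rab31, Rab32 and Rab7b were the called genes whose 6 myeloid arrays all lay above all 12 lymphoid arrays. Rab31, a relative of Rab5 that works between the Golgi and early endosomes, stood at 8.54 and 8.88 in DC, 10.85 and 10.81 in GN and 10.99 and 11.21 in MF. The lymphoid arrays had a lowest value of 6.82, a median of 7.05 and a highest of 8.27. Their top values were those of NK, 8.27 and 8.10, which came within reach of the lower DC array while the T cell populations stayed near the bottom. Rab31 was higher in myeloid populations by 3.01 ± 0.06 (adjusted p = 3.33e-17).

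Rab32, which serves lysosome-related organelles and the vacuoles of ingested bacteria, was close in DC (9.13 and 9.50) and GN (9.43 and 9.23) and above both in MF (10.19 and 10.02). On the lymphoid arrays it ran from 6.62 through a median of 6.95 to 7.42, so the gap between the groups was wider than the spread inside either. The difference was 2.58 ± 0.07 (adjusted p = 1.03e-15). Rab7b, which acts in transport from endosomes back to the Golgi, was high in DC (10.04 and 10.52) and MF (9.46 and 10.57) and stood at 6.58 and 6.54 in GN. Lymphoid arrays ran from 5.95 through 6.23 to 6.46, so the GN arrays were nearer to lymphocytes than to the other myeloid cells. Its contrast of 2.72 ± 0.12 (adjusted p = 1.03e-12) is thus a mean over unlike populations. Rab7b was lower in GN than in DC, at -3.72 ± 0.24 (adjusted p = 6.85e-10), and lower in GN than in MF, at -3.46 ± 0.24 (adjusted p = 1.07e-09). The MF arrays of Rab7b lay more than 2-fold apart, and without MF replicate 3 the latter difference was -2.90, without MF replicate 2 it was -4.01.

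**Figure D2:**
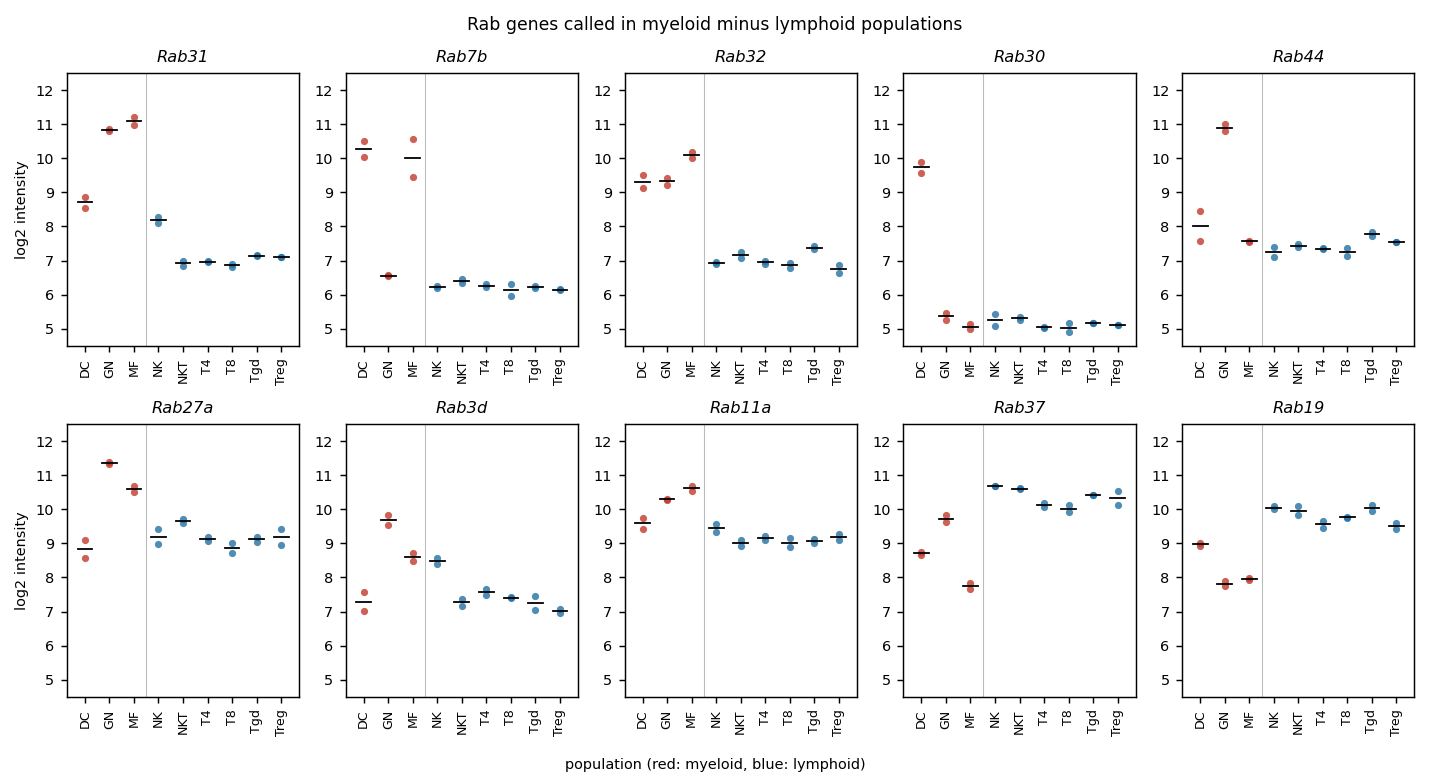
Log2 intensity (vertical axis, same scale in all panels) of the 10 Rab genes called in the myeloid minus lymphoid contrast, by population (red, 3 myeloid; blue, 6 lymphoid); points are arrays and black bars means of 2 arrays. Rab31, Rab32 and Rab7b have no overlap between red and blue points with red above, Rab37 and Rab19 none with blue above, and the other 5 overlap.

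For genes called with no overlap between myeloid and lymphoid arrays, the 250 bases before the RefSeq start (GRCm38.p6) are shown where the promoter table holds the gene, to set the myeloid-high Rab31 and Rab32 beside the lymphoid-high Rab19. Rab32 lies on the minus strand at chr10:10558208-10558457, Rab31 on the minus strand at chr17:65772753-65773002 and Rab19 on the plus strand at chr6:39381103-39381352. Capitals mark matches, on either strand, to 4 short motifs: TTCNNNGAA (GAS, the STAT site of IFNg signalling), an interferon response core (GAAA, any 2 bases, GAAA), GAGGAAGT (a core bound by the myeloid factor PU.1 and other ETS proteins) and CACGTG (the E-box of TFEB, MYC and related factors).
Rab32: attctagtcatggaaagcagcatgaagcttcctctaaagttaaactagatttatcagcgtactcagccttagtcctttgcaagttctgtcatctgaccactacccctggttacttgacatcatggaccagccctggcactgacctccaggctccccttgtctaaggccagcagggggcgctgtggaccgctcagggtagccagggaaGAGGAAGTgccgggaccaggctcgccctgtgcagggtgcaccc
Rab31: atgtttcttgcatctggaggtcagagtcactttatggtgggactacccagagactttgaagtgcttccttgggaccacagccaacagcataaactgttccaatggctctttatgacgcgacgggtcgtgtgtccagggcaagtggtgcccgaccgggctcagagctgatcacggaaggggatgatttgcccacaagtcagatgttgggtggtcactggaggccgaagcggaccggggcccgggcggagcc
Rab19: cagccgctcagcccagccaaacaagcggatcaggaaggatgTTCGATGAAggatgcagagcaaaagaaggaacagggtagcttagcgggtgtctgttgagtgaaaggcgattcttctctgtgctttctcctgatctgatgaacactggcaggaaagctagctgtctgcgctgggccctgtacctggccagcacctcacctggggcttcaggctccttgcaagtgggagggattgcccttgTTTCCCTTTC
Rab32 held the PU.1 core, starting 43 bases before its start site, Rab19 held a GAS match starting 209 bases before and an interferon core starting 10 bases before, and Rab31 held none of the 4. RefSeq promoters matched 48 of the 59 Rab genes, with 60 start sites. The GAS motif was found in 8.33% of these and in 7.02% of all 32851 promoters, the interferon core in 1.67% and 2.98%, the PU.1 core in 3.33% and 2.44%, and the E-box in 8.33% and 6.02%. These matches describe letters in a window, not bound sites.

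The 3 myeloid-high secretion Rabs had their highest level in granulocytes, as had Rab3c, which is dim and even (GN mean 5.25). Rab44, a large Rab with a role in granule exocytosis, stood at 11.00 and 10.80 in GN, against 7.58 and 7.55 in MF, 7.58 on DC replicate 1 and 8.44 on DC replicate 2. Lymphoid arrays ran from 7.12 through 7.39 to 7.83, so MF and the lower DC array lay inside the lymphoid range. Rab44 was higher in GN than in DC by 2.89 ± 0.19 (adjusted p = 1.12e-09) and than in MF by 3.34 ± 0.19 (adjusted p = 1.12e-10). In the myeloid contrast it was higher by 1.39 ± 0.10 (adjusted p = 6.08e-10), and by 2.02 without MF.

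Rab27a, which docks granules at the plasma membrane and is needed for killing by cytotoxic T cells, reached 11.33 and 11.39 in GN and 10.67 and 10.51 in MF. DC stood at 8.57 and 9.10, with the lower array below the whole lymphoid range of 8.71 to 9.71 (median 9.13). NKT, at 9.59 and 9.71, had the highest lymphoid mean. Rab27a was higher than in DC by 2.52 ± 0.18 in GN (adjusted p = 3.42e-09) and by 1.76 ± 0.18 in MF (adjusted p = 4.91e-07), and in the myeloid contrast by 1.07 ± 0.09 (adjusted p = 1.31e-08). Rab3d, a Rab of secretory granules, showed 9.55 and 9.84 in GN, 8.47 and 8.73 in MF and 7.01 and 7.56 in DC, over a lymphoid range of 6.94 to 8.59 (median 7.41). NK held the top of that range, level with MF. Rab3d was higher in GN than in DC by 2.41 ± 0.17 (adjusted p = 3.36e-09) and than in MF by 1.09 ± 0.17 (adjusted p = 3.77e-05), and higher in MF than in DC by 1.31 ± 0.17 (adjusted p = 9.32e-06).

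Rab11a, of recycling endosomes, was the gene just inside the threshold of the myeloid contrast, higher by 1.01 ± 0.07 (adjusted p = 4.71e-10). It stood at 9.44 and 9.74 in DC, 10.28 and 10.31 in GN and 10.53 and 10.70 in MF, over lymphoid arrays from 8.89 through 9.12 to 9.58. Just outside were Rab1a, at 0.86 ± 0.05, and, on the lymphoid side, Rab6b, at -0.97 ± 0.08. Rab3d, Rab11a and Rab27a passed the 2-fold threshold only narrowly. Without MF their differences were 0.99, 0.79 and 0.90, without DC replicate 2 they were 0.94, 0.96 and 0.98, and after quantile normalization 0.99, 0.96 and 0.98. Other single arrays also took Rab3d and Rab11a below 2-fold when left out, to no less than 0.98.

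Markers of other cells moved with these genes between the DC arrays, those of granulocytes most. The summed intensity of the 12 measured markers was 13.09 on DC replicate 1 and 14.91 on replicate 2 (log2), against 16.48 and 16.65 in GN, 11.29 and 11.36 in MF and between 9.54 and 11.19 on the lymphoid arrays. Their median was 1.92 higher on replicate 2, and Rab44, Rab3d and Rab27a were 0.86, 0.55 and 0.53 higher there. Of the other myeloid-high genes Rab7b, Rab32, Rab31 and Rab11a were 0.48, 0.38, 0.34 and 0.30 higher there. The medians of the markers of red pulp macrophages, monocytes, red cells and platelets, and NK cells were 0.96, 0.57, 0.52 and 0.48 higher on replicate 2, and that of the DC markers -0.13. The part of these markers in the DC values was not tested. Without DC replicate 2 the differences of GN from DC were 3.32 for Rab44, 2.68 for Rab3d and 2.79 for Rab27a.

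**Figure D3:**
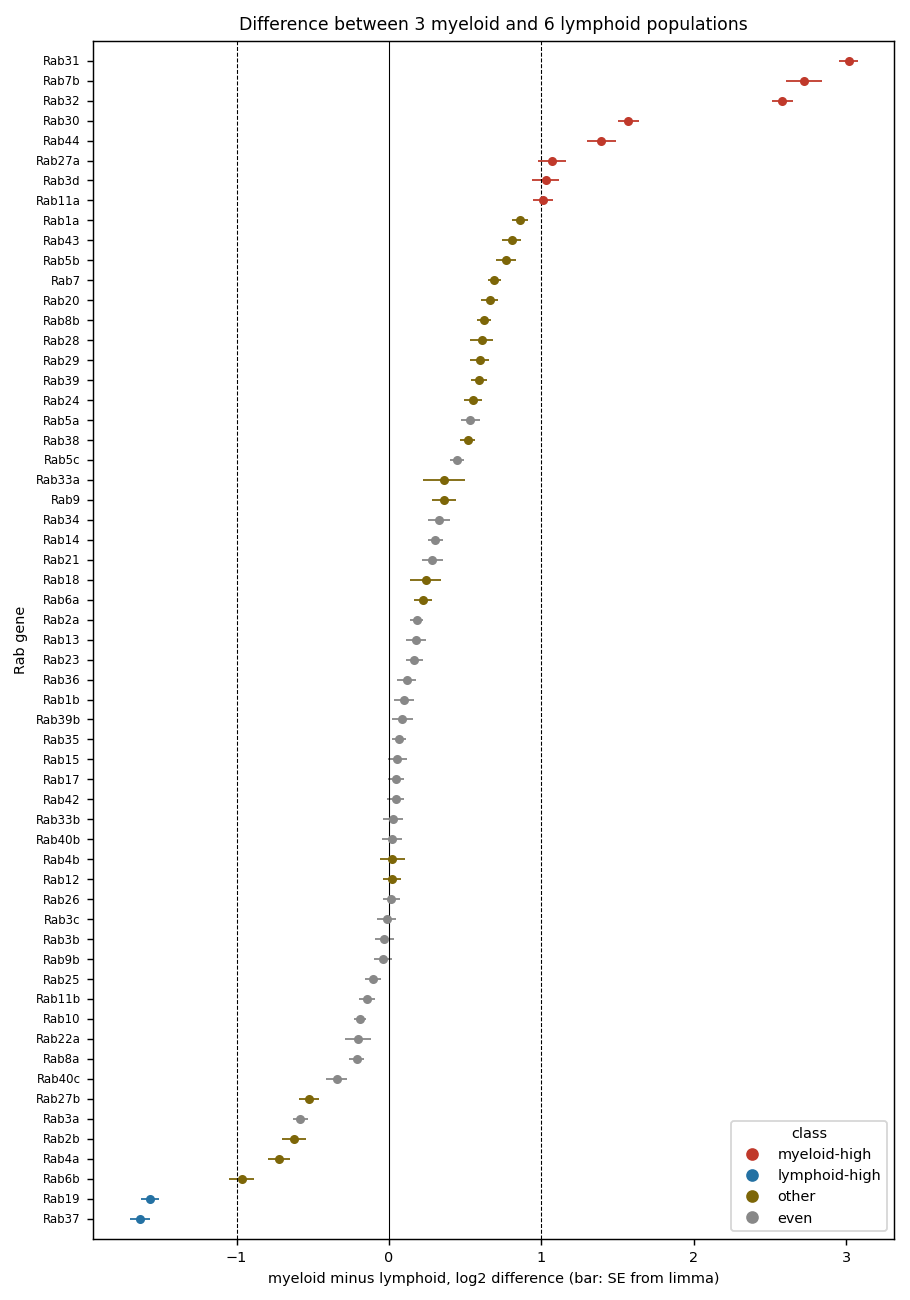
Myeloid minus lymphoid difference (horizontal axis, log2) of all 59 Rab genes, ordered by size; points are estimates, bars the SE from limma, dashed lines 2-fold in either direction, and colour the class. Rab31 at 3.01 lies farthest to the right and Rab37 at -1.63 farthest to the left, with most genes between the dashed lines.

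Rab30 was high only in the DC population within this panel. This Golgi Rab stood at 9.89 and 9.58 in DC and between 4.90 and 5.47 on the other 16 arrays, without overlap. Its range of 4.70 was the widest of the Rab genes (adjusted p = 2.96e-14, moderated F test). Rab30 was lower in GN than in DC, at -4.37 ± 0.13 (adjusted p = 7.98e-14), and lower in MF than in DC, at -4.67 ± 0.13 (adjusted p = 1.59e-14). Its call as myeloid-high, with 1.57 ± 0.07 (adjusted p = 6.96e-13), therefore rests on 1 of the 3 myeloid populations, and without MF it was 2.40. Markers of some other cells were also highest on both DC arrays. The summed intensity (log2) was 11.79 to 11.82 for B cell markers and 12.25 to 12.33 for eosinophil and mast cell markers. Elsewhere the highest values were 11.31 and 10.57, both in Tgd. The part of such cells in the DC values was not tested.

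Rab43, a Rab of the ER and Golgi that has been linked to cross-presentation by dendritic cells, stood at 11.03 and 10.89 in DC. It was at 9.16 and 9.19 in GN and at 8.63 and 8.60 in MF, and the NK mean of 9.24 ± 0.28 was the highest outside DC. It was lower than in DC in GN, at -1.78 ± 0.13 (adjusted p = 2.91e-09), and in MF, at -2.34 ± 0.13 (adjusted p = 9.44e-11). Rab38, which shares work with Rab32 in pigment and other lysosome-related organelles, was at 7.17 and 7.06 in DC and lower in MF by a difference of -1.06 ± 0.10 (adjusted p = 1.1e-07). Rab38 was dim, and even its DC mean of 7.11 lay under the median level of all genes (7.27). The GN difference of Rab38 was under 2-fold, with a GN mean of 6.16 ± 0.04. Without MF replicate 3 and after quantile normalization the MF difference fell under 2-fold too, at -0.996 and -0.981. Rab39, linked to phagosomes and autophagy, had means of 7.46 in DC, 7.01 in MF and 6.56 in GN and a range of 1.28 over the 9 populations (adjusted p = 1.13e-07).

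Among the 3 myeloid populations 7 Rab genes were higher in GN than in DC and 5 were lower (backgrounds 5.77% and 11.1% of all genes). Beside those above, Rab5b of early endosomes was higher in GN by 1.07 ± 0.13 (adjusted p = 2.34e-06), Rab6a of the Golgi by 1.04 ± 0.11 (adjusted p = 5.85e-07), Rab31 by 2.13 ± 0.12 (adjusted p = 2.44e-10) and Rab37 by 1.02 ± 0.13 (adjusted p = 4.64e-06). Without DC replicate 1 Rab5b, Rab6a and Rab37 stood at 0.99, 0.94 and 0.98, under 2-fold, Rab6a without GN replicate 2 at 0.93 and Rab37 without GN replicate 1 at 0.92. After quantile normalization Rab5b stood at 0.92 and Rab6a at 0.85. Rab12, which sends recycling receptors to lysosomes, was lower in GN, at -1.26 ± 0.12 (adjusted p = 1.44e-07), and Rab19 was lower, at -1.15 ± 0.12 (adjusted p = 2.76e-07), and after quantile normalization Rab12 stood at -0.93 and Rab19 at -0.88. The comparison of MF with DC called 5 higher and 4 lower (backgrounds 5.89% and 4.97%), with Rab31 higher by 2.39 ± 0.12 (adjusted p = 4.9e-11). In the same comparison Rab11a was higher by 1.03 ± 0.14 (adjusted p = 9.08e-06) and Rab19 lower, at -1.02 ± 0.12 (adjusted p = 1.87e-06). Without DC replicate 1 these came to 0.874 and -0.987 and without MF replicate 3 to 0.942 and -0.998, and Rab11a was at 0.96 after quantile normalization.

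GN set against MF gave 4 Rab genes higher and 4 lower (backgrounds 6.58% and 14.1%). Rab37 was higher in GN by 1.97 ± 0.13 (adjusted p = 8.44e-10) and Rab4b, of rapid recycling, by 1.03 ± 0.16 (adjusted p = 3.56e-05). Rab4b was under 2-fold without MF replicate 2, at 0.87, and after quantile normalization, at 0.93, and Rab3d was at 0.95 without GN replicate 2 and 0.97 without MF replicate 2. Rab12 was lower in GN, at -1.77 ± 0.12 (adjusted p = 1.33e-09), with arrays at 8.17 and 8.40 against 10.15 and 9.97 in MF and 9.66 and 9.44 in DC. Rab18, of the ER and lipid droplets, was lower at -1.03 ± 0.20 (adjusted p = 0.000336), and under 2-fold after quantile normalization (-0.66), after centring of each array (-0.99) and without GN replicate 1 (-0.97). Rab33a, a Golgi Rab that binds the autophagy protein Atg16l1, differed by -1.23 ± 0.27 (adjusted p = 0.001). It was at 5.72 on MF replicate 2 and 7.13 on MF replicate 3, and at 5.40 or less on every other array. Without MF replicate 3 this difference was -0.52, and the one between MF and DC, 1.52 ± 0.27 with all arrays (adjusted p = 0.000247), was 0.82, so both calls rest on 1 array. Without MF replicate 2 they were -1.93 and 2.23.

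Rab37 and Rab19 were the lymphoid-high genes, and for both of them all 12 lymphoid arrays lay above all 6 myeloid ones. Rab37, found on secretory granules, ran from 9.91 through 10.42 to 10.70 on the lymphoid arrays, with NK (10.70 and 10.67) at the top. Its myeloid levels were stepped, at 9.83 and 9.63 in GN, 8.67 and 8.75 in DC and 7.66 and 7.85 in MF, so that GN came close to the lowest T8 array. It was lower in the myeloid populations, at -1.63 ± 0.07 (adjusted p = 3.86e-13), and at -1.15 without MF. Rab19, a Golgi Rab, ran from 9.42 through 9.81 to 10.12 on the lymphoid arrays and stood at 8.97 ± 0.05 (SD) in DC, 7.89 and 7.75 in GN and 7.97 and 7.92 in MF. It was lower in the myeloid populations, at -1.57 ± 0.06 (adjusted p = 1.43e-13). Among the Rab genes without a call, Rab3a also had no overlap with lymphoid above, at a difference of -0.58 ± 0.05, but its levels of 5.95 to 6.94 were below the median gene. Lymphoid arrays lay wholly above for 3 Rab genes (5.08%, against 5.07% of all genes) and myeloid arrays wholly above for 8 (13.6%, against 4.23%).

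The 5 of those 8 that were called over the 9 populations but not between myeloid and lymphoid cells were Rab1a, Rab5b, Rab7, Rab20 and Rab28. Rab1a, which takes cargo from the ER to the Golgi, differed by 0.86 ± 0.05, Rab5b of early endosomes by 0.77 ± 0.07, and Rab7, which matures late endosomes and phagosomes, by 0.69 ± 0.04. Rab20, tied to phagosome maturation in macrophages, differed by 0.66 ± 0.05 and Rab28 by 0.61 ± 0.08. All these differences were under 2-fold, with adjusted p between 1.96e-10 and 2.56e-06. GN had the highest mean of Rab1a (11.84), Rab5b (10.66), Rab7 (11.71) and Rab20 (8.51), and MF that of Rab28 (8.29). The median difference over all genes was 0.18 for GN minus DC and 0.20 for GN minus MF. After quantile normalization Rab1a and Rab7 were no longer called over the 9 populations. Rab28 was also the gene just inside the 2-fold range over the 9 populations, at 1.00, and Rab5a just outside it, at 0.98.

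Rab2b, Rab9, Rab24 and Rab29 were also called over the 9 populations, and in no other comparison. Rab24, linked to autophagy, ranged from 8.54 in Tgd to 9.83 in GN (adjusted p = 1.03e-06, moderated F test). Rab29, a partner of the kinase Lrrk2, ranged from 8.93 in NKT to 10.22 in MF (adjusted p = 4.77e-06). Rab9, of traffic from late endosomes to the Golgi, and Rab2b, of the ER and Golgi, had ranges of 1.10 and 1.35, with GN highest for the former and lowest for the latter.

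Within the lymphoid populations 5 of the 59 Rab genes were called over the 6 populations (8.47%, against 9.95% of all genes), and 4 of these were set apart by NK or NKT cells. Rab27b, a close relative of Rab27a that serves granules of platelets and mast cells, stood at 8.16 and 7.71 in NK and 6.21 and 6.22 in NKT. On all other arrays it lay between 5.35 and 5.89. It was higher in NK than in the mean of the other 5 lymphoid populations by 2.19 ± 0.10 (adjusted p = 1.47e-11). Rab3d and Rab31 were higher in NK too, by 1.20 ± 0.14 (adjusted p = 2.37e-06) and 1.19 ± 0.10 (adjusted p = 3.28e-08). These were the 3 Rab genes called higher in NK (5.08%, background 2.41%), and none was called lower (background 1.82%). In either direction 13 Rab genes had an adjusted and 22 an unadjusted p under 0.05 in limma. The shares of all genes at that p alone are not given here, so these 2 counts have no background.

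**Figure D4:**
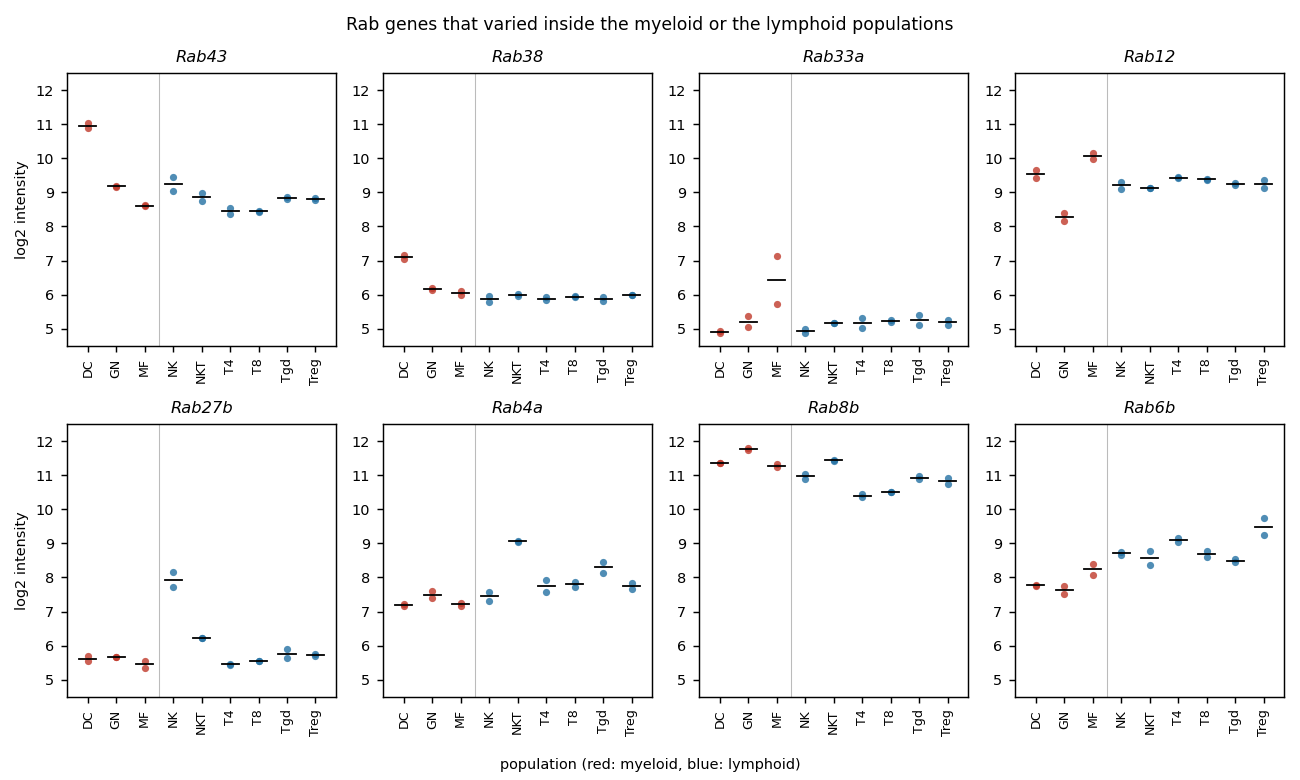
Log2 intensity (vertical axis, same scale in all panels) by population of 8 Rab genes that varied inside the myeloid or the lymphoid group; points are arrays and black bars means of 2 arrays (red, myeloid; blue, lymphoid). Rab43 and Rab38 are highest in DC, Rab33a on 1 MF array, Rab27b in NK and Rab4a in NKT, at 9.07 and 9.05.

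Rab4a, of rapid recycling from early endosomes, was the 1 gene called in NKT, higher by 1.25 ± 0.11 (adjusted p = 2.87e-07; 1.69% of Rab genes, background 1.03%). NKT arrays stood at 9.07 and 9.05, followed by Tgd at 8.47 and 8.14, and the other 14 arrays lay at 7.91 or below. No Rab gene was called lower in NKT (background 0.764%). In either direction 7 Rab genes had an adjusted and 13 an unadjusted p under 0.05 in limma. Rab8b, which delivers vesicles to the surface, ranged over 1.03 among lymphoid cells, from 10.40 ± 0.06 in T4 to 11.44 ± 0.02 in NKT, and was just inside the threshold. It lost its call without T4 replicate 2 and after centring of each array on its median. Just outside was Rab6b, of Golgi traffic, with a range of 0.999, from 8.50 ± 0.06 in Tgd to 9.50 ± 0.36 in Treg. Rab6b stood at 9.24 and 9.75 in Treg, 0.78 above the mean of the other lymphoid populations (adjusted p = 0.000396 in limma). This difference was 1.03 without Treg replicate 2 and 0.53 without Treg replicate 3. No Rab gene was called for T4, T8, Tgd or Treg against the other lymphoid populations. At an adjusted p under 0.05 in limma there were 6, 6, 4 and 6, all under 2-fold. At an unadjusted p under 0.05 there were 12, 13, 13 and 11. Shares of all genes at these p thresholds alone are not given here. The backgrounds of calls, higher and lower, were 0.557% and 0.770% for T4, 0.461% and 1.06% for T8, 0.643% and 0.137% for Tgd and 0.952% and 0.795% for Treg.

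Of the 28 even Rab genes, 14 reached the median level of all genes in at least 1 population. Among Rab genes with a mean over all populations above the median level of all genes the smallest ranges over the 9 populations were those of Rab11b (0.38), Rab22a (0.53), Rab14 (0.55), Rab1b (0.57) and Rab10 (0.60). Their population means lay between 11.32 and 11.70 for Rab11b of recycling endosomes and between 10.93 and 11.53 for Rab10, which delivers vesicles to the surface. Rab11b was even only on the probe set used. Its dimmer probe set had a range of 1.08, over 2-fold, from 7.53 in DC to 8.61 in NK. Rab2a, Rab5c, Rab8a, Rab21 and Rab35 were also bright and even, with ranges of 0.61 to 0.94, and Rab5a, Rab33b, Rab40c and Rab26 made up the rest, Rab26 being close to the median level with a range of 0.27. The dim even genes were Rab3a, Rab3b, Rab3c, Rab9b, Rab13, Rab15, Rab17, Rab23, Rab25, Rab34, Rab36, Rab39b, Rab40b and Rab42. Of these Rab3a and Rab23 differed between the 9 populations by under 2-fold (adjusted p = 4.78e-07 and 1.9e-05, moderated F test). Rab13, Rab17, Rab34 and Rab42 had adjusted p between 0.00638 and 0.026 in this test. Where a dim gene did not differ, an absent transcript and an even one look alike on these arrays.

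Close relatives often had unlike patterns, given here side by side, with no test of the difference between genes. Rab11a differed by 1.01 between myeloid and lymphoid cells and Rab11b by -0.14, Rab1a by 0.86 and Rab1b by 0.10, Rab8b by 0.62 and Rab8a by -0.21, and Rab6a by 0.22 and Rab6b by -0.97. Rab27a had its highest mean in GN and Rab27b in NK, and Rab4a in NKT and Rab4b in GN. Rab32 was above the lymphoid arrays in all 3 myeloid populations, while Rab38, with every mean under the median gene, was highest in DC. Rab5a, Rab5b and Rab5c stood at 0.53, 0.77 and 0.45, and their ranges over the 9 populations were 0.98, 1.53 and 0.76. Rab11b, Rab2a and Rab5b each had 2 probe sets. The dimmer ones gave -0.38, 0.19 and 0.74 against -0.14, 0.18 and 0.77 for the ones used, and none of these reached 2-fold. The range over the 9 populations was 1.08 on the dimmer probe set of Rab11b and 0.38 on the one used. Probe sets of related Rabs can share sequence. Whether the probe set used for each of these genes reads the gene itself or a copy elsewhere in the genome was not tested.

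Genes that act on Rabs moved in both directions. Of 32 measured exchange factors 4 were higher and 2 lower in the myeloid populations, with a median of -0.07, where 6.39% of all genes were higher and 4.41% lower. Rin2, an exchange factor of Rab5, was higher by 3.42 ± 0.07 (adjusted p = 3.03e-17), from 6.36 in T8 to 11.53 in MF, and Dennd5a and Dennd4a by 2.08 ± 0.06 and 1.28 ± 0.07. Dennd2d and Als2cl were lower, at -1.91 ± 0.07 and -1.67 ± 0.06. Of 35 GAPs 5 were higher and 4 lower (all genes 6.39% and 4.41%), with a median of 0.04. Tbc1d8 was higher by 3.46 ± 0.07, Evi5 by 2.73 ± 0.07 and Tbc1d2 by 2.52 ± 0.13, each led by another population: DC at 11.30 for Tbc1d8, MF at 11.88 for Evi5 and GN at 11.37 for Tbc1d2. Tbc1d22b, Rabgap1l and Tbc1d10c were lower, at -1.99 ± 0.05, -1.59 ± 0.06 and -1.50 ± 0.06.

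Of 53 measured Rab effectors 5 were higher and 2 lower (all genes 6.39% and 4.41%), with a median of 0.06. Lrrk2, a kinase that phosphorylates several Rabs, was higher by 4.70 ± 0.10 (adjusted p = 7e-17), at 11.53 in DC, 11.18 in GN and 10.12 in MF against 5.90 to 6.53 in the lymphoid populations. Myo5a, a motor that moves Rab27a and Rab11a vesicles, was higher by 3.19 ± 0.06 and Lrrk1 by 1.69 ± 0.08. Both effectors that were lower bind Rab27: Sytl2 at -3.47 ± 0.07 (adjusted p = 2.61e-17) and Sytl3 at -1.97 ± 0.11 (adjusted p = 2.53e-11). Sytl3 was highest in NK at 10.79 and Sytl2 in NK and NKT, at 10.18 and 10.11, while in GN, where Rab27a was highest, they stood at 6.87 and 5.69. Of 7 genes of the membrane cycle, Chml, an escort protein, was higher by 1.14 ± 0.09 and none was lower. Of 6 relatives that the naming rule leaves out, the calcium-binding Cracr2a was lower, at -1.55 ± 0.06, and none was higher.

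**Figure D5:**
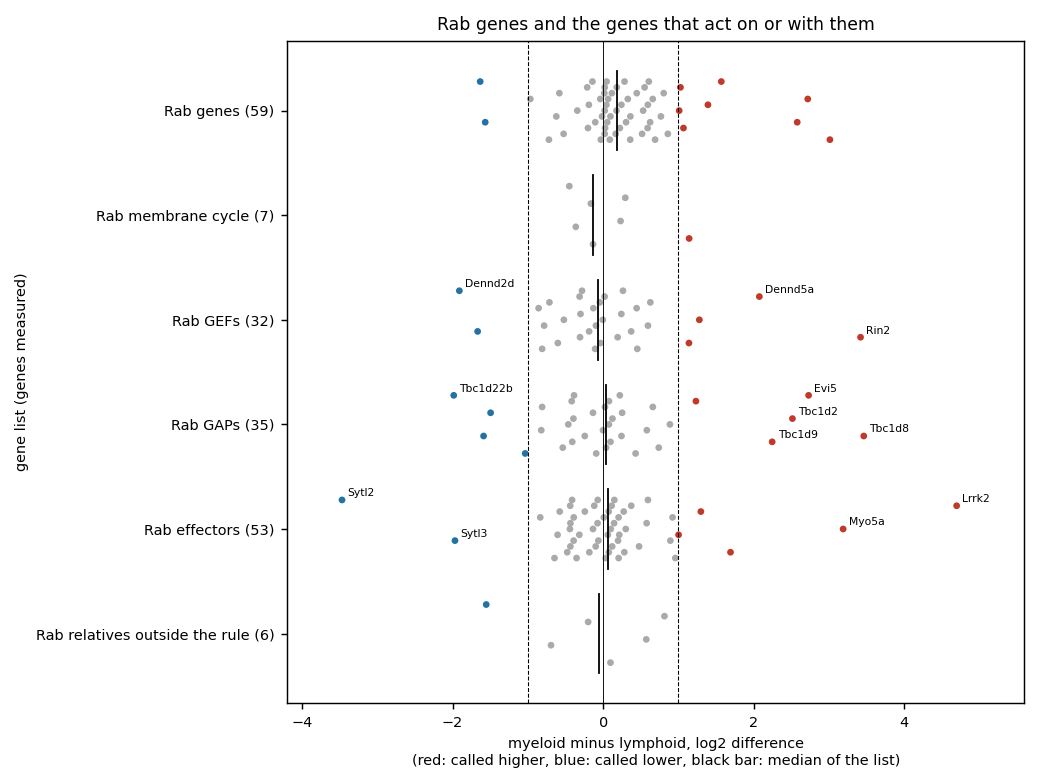
Myeloid minus lymphoid difference (horizontal axis, log2) of the Rab genes and of 5 lists of genes that act on or with them (rows, with the number measured); points are genes, red called higher, blue called lower, grey not called, black bars list medians, dashed lines 2-fold. Lrrk2 at 4.70 and Sytl2 at -3.47 lie farthest out on either side, and every list median is near 0.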

How the data were processed

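The authors deposited 1 intensity value per probe set and array, on a linear scale, made with Affymetrix Power Tools and RMA per the submitters' processing notes. Versions, and whether all arrays were normalized together, are not given in the sources used here. The table held 24922 probe sets, of which 21425 had 1 gene symbol in GEO's platform annotation, 1399 had several and 2098 were not listed. Symbols were updated by Entrez number (21347 matched) against a RefSeq gene table of GRCm38.p6. A gene with several probe sets was read from the one with the highest mean, leaving 19752 genes.

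Log2 values of all 18 arrays were fitted with limma 3.58.1 in R 4.3.3 with 1 mean per population, no covariate and a mean-variance trend (9 residual and 7.69 prior degrees of freedom). Tests were two-sided moderated contrasts and moderated F tests, adjusted over all genes, and the script was tested on simulated data. Named were the genes called between myeloid and lymphoid cells, the 5 largest each way in the other contrasts (further ones where a call depended on an array or scaling), the largest and smallest ranges, those beside each threshold and the 3 largest each way of each list. The Rab genes, lists and roles were chosen with earlier results of these data known. Replicate numbers were not used to pair arrays in the main fit. Alternatives were another scaling, filter, probe set rule, variance prior, fold and symbol set, a replicate block, and leaving out each array or MF.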

Additional observations from a re-analysis of the deposited data

How the results depend on the processing

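With a 1.5-fold in place of a 2-fold minimum, 17 Rab genes were higher and 5 lower in the myeloid contrast. The calls then numbered 44 over the 9 populations, 12 over the 6 lymphoid populations, 23 for GN and 15 for MF against DC and 20 for GN against MF. For single lymphoid populations they numbered 5 for NK, 2 for NKT, 1 for T4, 1 for T8 and 2 for Treg. Shares of all genes at the 1.5-fold minimum are not given here, so these counts have no background beside them. Quantile normalization left 5 of the 59 Rab genes higher in the myeloid contrast, all among the 8, against 1213 of all 19752 genes. Leaving out single arrays gave 5 to 8 higher and 2 to 3 lower there (5 without DC replicate 2), 29 to 32 over the 9 populations, 4 to 6 over the lymphoid ones, 9 to 13 for GN and 6 to 9 for MF against DC, 6 to 8 for GN against MF, 3 for NK, 1 for NKT, 0 to 1 for Treg (1, Rab6b, without replicate 2; without replicate 3 its difference was 0.53, adjusted p = 0.0567 in limma) and 0 for T4, T8 and Tgd. Without MF, 6 were higher and 3 lower in the myeloid contrast, with Rab43 and Rab6b entering. Shares of all genes with single arrays or MF left out, or with a replicate block, are not given here. Quantile normalization moved GN against MF from 4 higher and 4 lower to 5 and 3. Over all genes the same counts moved from 1300 and 2794 to 1514 and 2319. Of the 43 called differences of Rab genes none changed sign under these alternatives, which were not run for single genes of the other lists or for uncalled Rab genes. In 16 of the 43 at least 1 alternative brought the size under 2-fold, with adjusted p of limma up to 0.0118. Whether the replicate numbers pair the arrays cannot be told here. Correlations of deviations from the population means were over 0.1 in 19 of 54 same-number pairs, with a median of 0.08 and a highest of 0.47. With 2 arrays per population the 2 deviations mirror each other, and differently numbered pairs were not compared. A replicate block gave 8 higher and 2 lower in the myeloid contrast, 32 over the 9 populations, 10 for MF against DC and 9 for GN against MF, with the other counts unchanged. RMA compresses folds of dim genes, which limits the 16 Rab genes whose highest mean lay under the median gene.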
